A study of Mus musculus with 12 samples.

Results

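The genes described here encode the nuclear subunits of the mitochondrial respiratory chain and of ATP synthase. They were chosen by symbol in the platform's annotation. Nduf genes were counted in complex I, Sdha to Sdhd in complex II and Uqcr genes in complex III. Cox4 to Cox8 genes were counted in complex IV and Atp5 genes in complex V. The complex was assigned by symbol alone, so Ndufa4 and its paralog Ndufa4l2 stand in complex I by name only. The rule found 82 of the 18194 genes that had a probe set with a single gene symbol, 36 in complex I, 4 in complex II, 8 in complex III, 17 in complex IV and 17 in complex V. Their Entrez identifiers were all found in RefSeq, and their positions lie on 19 chromosomes, with 9 of the genes on chromosome 7. The brightest probe set stood for each gene. Of the 82 genes, 80 passed a filter on low signal, with 35 of complex I and 16 of complex IV, and the exceptions were Ndufb4, with a mean signal of 10.3, and Cox7b2, with 3.5. Probe sets that join several symbols were left out, so these signals need not stand for the whole expression of a gene.

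The samples were left ventricles of Balb/c mice aged 6 to 8 weeks, and their total RNA was measured on 12 Affymetrix arrays of 45101 probe sets. In transverse aortic constriction (TAC) a ligature narrows the aorta and loads the left ventricle, and arrays were made at 1 day, 1 week and 1 month, each with a sham. In myocardial infarction (MI) the left coronary artery was ligated, with arrays at 1 week and 1 month and a sham for each, and the pressor peptide angiotensin II (Ang II) was given at 2 mg/kg/day for 1 week beside 1 control. Each of the 12 groups was 1 array, so the 6 procedure and control pairs, matched by the sample titles, were the replication, and whether an array held RNA of 1 animal or of a pool was not stated. No transgene or gene deletion is named in the labels. The series text describes a 30 min coronary occlusion with reperfusion, whereas the array labels name a ligation alone.

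Complex I takes electrons from NADH and complex II, which is also an enzyme of the tricarboxylic acid (TCA) cycle, takes them from succinate. Both pass them through ubiquinone to complex III, cytochrome c and complex IV, which reduces oxygen. Complexes I, III and IV pump protons across the inner mitochondrial membrane, and ATP synthase, complex V, uses their return to make ATP. The working heart draws most of its ATP from this pathway and its muscle cells are packed with mitochondria. The subunits of complexes I, III, IV and V that mitochondrial DNA encodes were not analysed here.

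The trimmed mean signal of the arrays ran from 105 to 131, and the signals were scaled to a common trimmed mean. Ratios of 3' to 5' probes, which rise as RNA degrades, ran from 1.18 to 1.33 for actin and from 0.790 to 0.854 for Gapdh. Pairwise correlations between arrays over the tested genes lay between 0.913 and 0.977. In cardiomyocyte markers, all 18 of them tested, the summed signal ran from 156797 to 171977 on the controls and from 135633 to 166556 on the procedure arrays. Of 13 fibroblast markers 7 rose and 0 fell by limma over the 6 pairs, where 5.16% of all tested genes rose, with summed signals of 12829 to 17022 on the controls and 17347 to 43544 on the procedure arrays. Of 15 macrophage and monocyte markers 9 rose and 0 fell, with summed signals of 3465 to 5650 and 4027 to 14484. In whole ventricle, fewer cardiomyocytes and less RNA per cardiomyocyte cannot be told apart, and the part of these markers in the results below was not tested.

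Subunits of all 5 complexes were lower in the procedure ventricles over the mean of the 6 pairs. Values are procedure to control ratios on the log2 scale, each with the standard error (SE) from limma's paired fit over 6 pairs. After Benjamini-Hochberg adjustment of limma's p-values over 11624 genes at 0.05, 44 of the 80 tested subunits fell and 0 rose, against 5.7% of all tested genes lower and 5.16% higher. The unadjusted p was under 0.05 for 72 subunits lower and 0 higher, against 15.5% and 13.4% of all tested genes. Of the 44, 24 of 35 were in complex I, 3 of 4 in complex II, 5 of 8 in complex III, 2 of 16 in complex IV and 10 of 17 in complex V. The median over the 80 subunits was -0.24, beside -0.0038 over all tested genes. The count of 44 rested on the array scaling and on single pairs, and the count over all tested genes, 662 in the reported fit, moved too. On the signals as deposited 1 subunit and 108 of all tested genes were lower. After quantile normalization these counts were 10 and 605, and with the arrays centred on other genes of high signal 6 and 151. Subunits called lower were 2 without the TAC 1 week pair, 3 without TAC 1 month, 2 without MI 1 week and 2 without MI 1 month. Over all tested genes these fits called 87, 105, 101 and 121 lower. There were 43 subunits without TAC 1 day and 62 without Ang II, where 616 and 806 of all tested genes were lower. Without limma's intensity trend 0 subunits and 68 of all tested genes were lower. Without its variance moderation or without the filter on low signal, 0 subunits and 0 of all tested genes were lower.

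The median ratio of the 80 subunits was -0.19, -0.33 and -0.32 at 1 day, 1 week and 1 month of TAC, -0.34 and -0.22 at 1 week and 1 month of MI, and -0.023 with Ang II. The same median between pairs of control arrays of the same time reached 0.13 in size, so under this scaling the 5 TAC and MI values lay outside the control differences and the Ang II value lay inside them. The 1 day sham had no other control of its time. The TAC 1 day values here and below were therefore read against control differences at 1 week and 1 month only. A subunit was counted in a pair when its ratio was at least 0.25 in size and its procedure array was higher or lower than all 6 controls. By this count 23 subunits were lower at 1 day of TAC, where 28.7% of all tested genes were, so the share of subunits was about equal to the background. At 1 week of TAC 57 were lower against 12.8% of all genes, and at 1 month of TAC 57 against 11.2%. At 1 week of MI 64 were lower against 18.8%, at 1 month of MI 25 against 11.7%, and with Ang II 0 against 6.13%. No subunit was counted higher in any of the 6 pairs under this scaling, where the background for higher genes ran from 7.15% to 19.9%. These counts moved with the scaling. On the signals as deposited 48, 6 and 2 subunits were lower in the TAC pairs and 16 and 11 in the MI pairs, against 33.7%, 3.75%, 2.98%, 10% and 8.42% of all tested genes. The share of subunits was then slightly below the background at 1 month of TAC. After quantile normalization the counts were 24, 8 and 5 in TAC and 33 and 4 in MI, against 27.5%, 14.3%, 11.7%, 20.8% and 12.8%, so that at 1 week and 1 month of TAC and at 1 month of MI the share of subunits was below the background. Centred on other bright genes they were 14, 4 and 2 in TAC and 8 and 2 in MI, against 27%, 2.88%, 3.25%, 7.42% and 4.96%. The share of subunits was then below the background at 1 day and 1 month of TAC and at 1 month of MI. In those 3 scalings at most 2 subunits were counted higher in a pair. Under the common trimmed mean the TAC and MI pairs were lower for 73, 77, 78, 77 and 74 of the 80 subunits, and the Ang II pair for 55. Of all tested genes, 55.1%, 50.3%, 50.4%, 49.2% and 49.0% were lower in the TAC and MI pairs and 51.4% with Ang II. There were 39 subunits for which the 5 TAC and MI arrays all lay below the 6 controls, against 5.66% of all tested genes. The same number had at least 5 of the 6 procedure arrays below all controls, against 6.77%. Above a mean signal of 5000 this second count was 29 of 50 subunits and 24 of 102 other genes. Both counts are given under the common trimmed mean only.

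**Figure D1:**
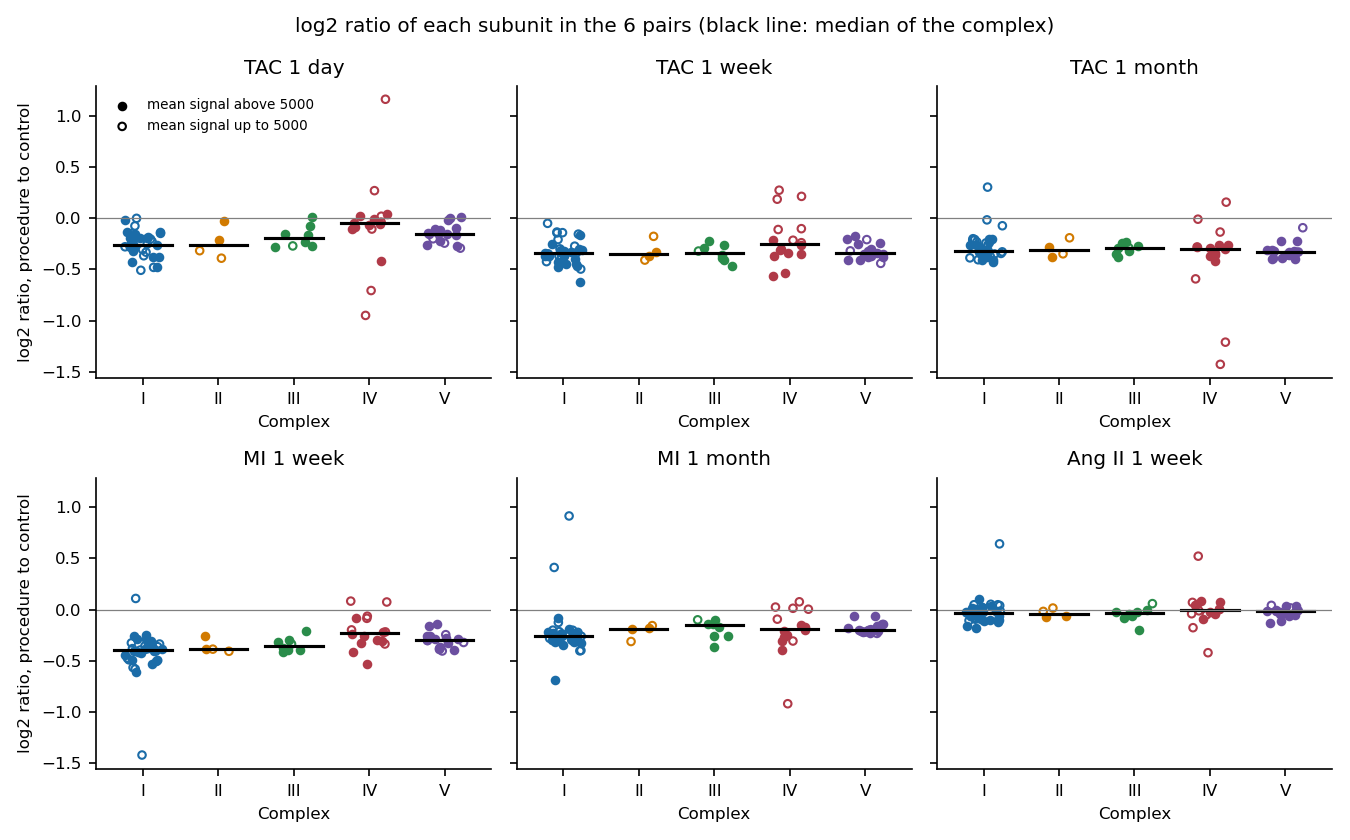
Log2 ratio of procedure to control (axis) for each tested subunit (points) in the 6 pairs, by complex, on signals scaled to a common trimmed mean, with filled points for a mean signal above 5000, open points for the rest, and a black line at the median of each complex. The complex medians run from -0.39 to -0.052 across the TAC and MI pairs and lie between -0.039 and -0.0045 with Ang II, but on the signals as deposited those of complexes II, III and IV at 1 month of TAC are above 0, and with the arrays centred on bright genes so are those of complex III at 1 month of MI, complex IV at 1 week of MI, and complexes IV and V with Ang II.

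Other genes of high signal were lower too. Among genes with a mean signal above 5000, 50 were subunits and 102 were not. The medians of the 102 other genes were -0.054, -0.23 and -0.24 in the TAC pairs, -0.22 and -0.15 in the MI pairs and 0.00044 with Ang II, while 14 ribosomal protein genes of that range stood at 0.17, -0.16 and -0.14 in TAC, -0.00028 and -0.085 in MI and -0.018 with Ang II. The difference between subunits above 5000 and the other bright genes does not depend on a constant scaling factor of an array. It was -0.10, -0.12 and -0.084 in the TAC pairs, -0.11 and -0.067 in the MI pairs, and -0.026 with Ang II. In complex I this difference was -0.17, -0.14 and -0.085 in TAC, -0.17 and -0.12 in MI and -0.044 with Ang II. With the arrays centred on those other genes, control arrays differed by up to 0.10 for subunits above 5000. For complex I above 5000 they differed by up to 0.12. The differences at 1 month of TAC, at 1 month of MI and with Ang II lay inside these ranges. For all bright subunits, those at 1 day of TAC and 1 week of MI lay at the edge. Above 5000, limma called 31 of the 50 subunits lower and 28 of the 102 other genes. Between 2000 and 5000 the 22 subunits had medians of -0.27, -0.32 and -0.26 in TAC, -0.39 and -0.23 in MI and -0.016 with Ang II, and 292 other genes of that range had -0.18, -0.14 and -0.095, then -0.23 and -0.084, and -0.0072.

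**Figure D2:**
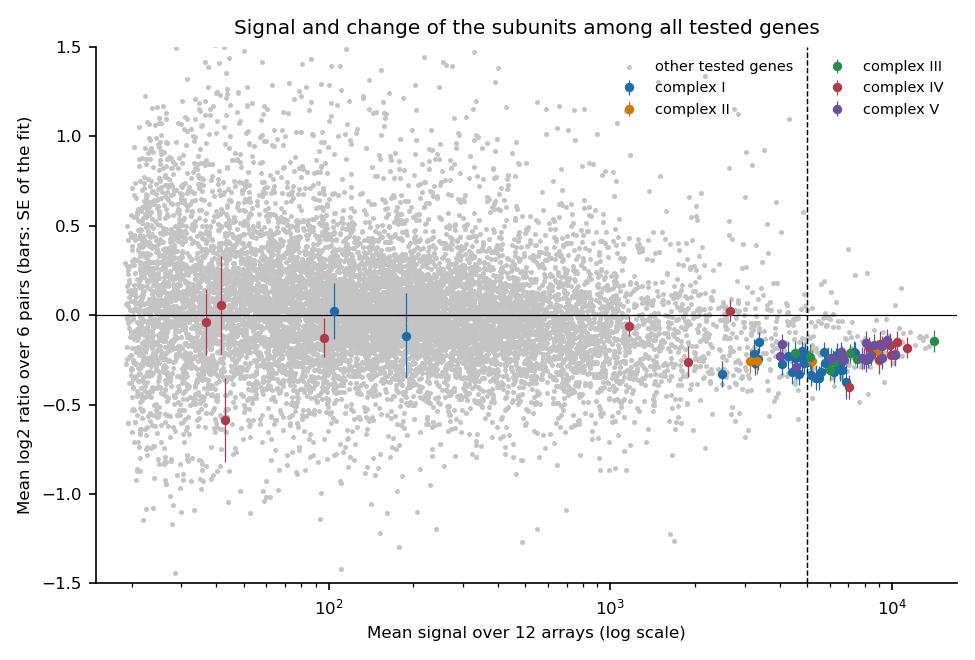
Mean log2 ratio over the 6 pairs (vertical axis, limited to 1.5 in size, so that some other genes lie outside it) against mean signal on a log axis, for subunits coloured by complex with bars for the SE of the fit, and for other tested genes in grey. Subunits above a signal of 5000 have a median of -0.24 and other genes of that range one of -0.14.

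On the signals as deposited, the subunit medians were -0.35, -0.12 and -0.0044 in the TAC pairs, -0.18 and -0.16 in the MI pairs and -0.031 with Ang II, while the medians of all tested genes moved to -0.23, 0.21 and 0.31, then 0.16 and 0.067, and -0.016. Read against those shifts, the subunits lay below the median gene in all 6 pairs. Control arrays differed by up to 0.087 on this scale, so the TAC 1 month value lay inside the control differences. After quantile normalization the subunit medians were -0.20, -0.11 and -0.092 in TAC, -0.21 and -0.079 in MI and -0.018 with Ang II, beside control differences of up to 0.051. With the arrays centred on the 102 bright genes they were -0.15, -0.12 and -0.091 in TAC, -0.095 and -0.029 in MI, and 0.0071 with Ang II, where the sign turned. Control differences then reached 0.10, so the values at 1 month of TAC and in both MI pairs lay inside them.

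**Figure D3:**
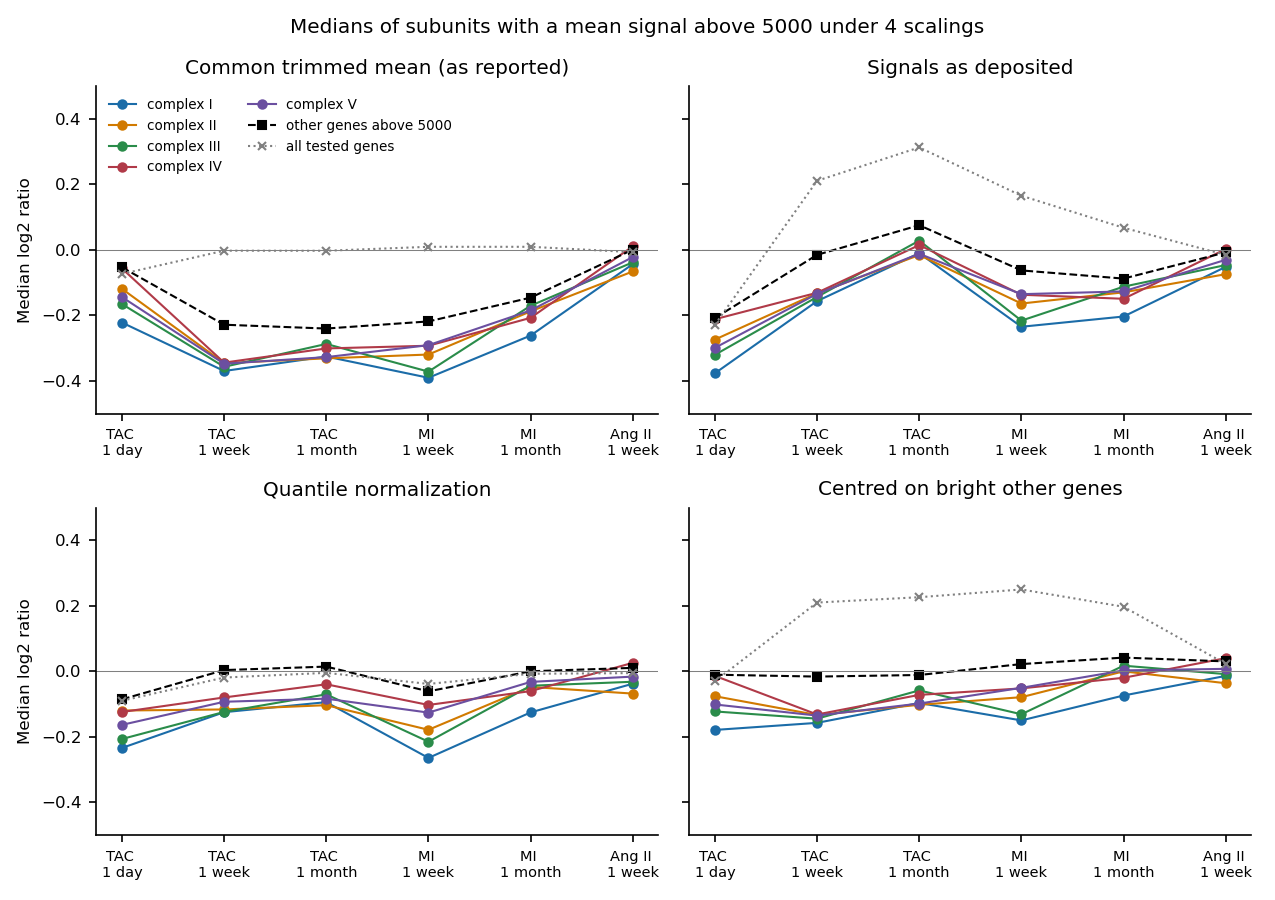
Median log2 ratio (vertical axis) in the 6 pairs of the subunits above a mean signal of 5000 in each complex, of the other genes above 5000 and of all tested genes, under 4 scalings of the arrays (panels). Complex medians in the TAC and MI pairs run from -0.39 to -0.057 under the common trimmed mean, while on the signals as deposited and with the arrays centred on bright genes some lie above 0.

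Complex I, the NADH dehydrogenase, had the lowest median at 1 day of TAC, 1 week of MI and 1 month of MI among the 5 complexes. Its medians were -0.27, -0.34 and -0.32 in the TAC pairs, -0.39 and -0.26 in the MI pairs and -0.034 with Ang II, beside control differences of up to 0.15. Under the common trimmed mean 33 of its 35 tested genes were below their control in all 5 TAC and MI pairs, against 15.9% of all tested genes. The exceptions were the dim Ndufa4l2 and Ndufb1. Above a mean signal of 5000 this held for 18 of 18 genes of complex I and for 57 of the 102 other genes (55.9%). Across the 6 pairs, 24 fell, with means from -0.37 to -0.21. The 6 tested core subunits of the peripheral arm, Ndufs1, Ndufs3, Ndufs7, Ndufs8, Ndufv1 and Ndufv2, had a median of their means of -0.32, and 5 of them fell. The other 29 tested Nduf genes, Ndufa4 and Ndufa4l2 among them, had a median of -0.25, with 19 that fell. This split was made after the values were seen.

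Ndufs1, the large iron-sulphur subunit of the electron-input arm, had a signal of 4599 on the TAC 1 day array against 5690 on its sham, 3620 against 4611 at 1 week of TAC, 3733 against 4740 at 1 month of TAC, 3701 against 5140 at 1 week of MI, 4149 against 5484 at 1 month of MI and 5160 against 5549 with Ang II. The 5 TAC and MI arrays lay below the 6 controls and the Ang II array within them. Its mean ratio fell by 0.33 (SE 0.061, adjusted p = 0.0143, lower in 6 of 6 pairs). Ndufs7, which holds the last iron-sulphur cluster before ubiquinone, had a signal of 5179 on the TAC 1 day array against 7194 on its sham, 4108 against 5312 at 1 week of TAC, 4682 against 5785 at 1 month of TAC, 4171 against 6038 at 1 week of MI, 4810 against 6014 at 1 month of MI and 6201 against 6631 with Ang II. Again the TAC and MI arrays were under the 6 controls and the Ang II array was not, and the mean was -0.35 ± 0.066 (adjusted p = 0.0145).

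Ndufa8, an accessory subunit, had 4551 on the TAC 1 day array against 5913 on its sham, 3965 against 5517 at 1 week of TAC, 4488 against 5625 at 1 month of TAC, 4172 against 5536 at 1 week of MI, 4655 against 5780 at 1 month of MI and 5644 against 6065 with Ang II, with no overlap between the 5 TAC and MI arrays and the controls. Its mean was -0.33 ± 0.061 (adjusted p = 0.0138). Ndufa5, an accessory subunit of the matrix arm, had 4941 on the TAC 1 day array against 6429 on its sham, 4505 against 5635 at 1 week of TAC, 4731 against 6065 at 1 month of TAC, 4761 against 6375 at 1 week of MI, 5142 against 6177 at 1 month of MI and 5724 against 6463 with Ang II. It was lower in 6 of 6 pairs, at -0.32 ± 0.055 (adjusted p = 0.0113). Ndufab1, the mitochondrial acyl carrier protein, which is built into complex I, stood at -0.32 ± 0.061 (adjusted p = 0.0161). These 5 genes, Ndufs1, Ndufs7, Ndufa8, Ndufa5 and Ndufab1, also fell after quantile normalization and with the arrays centred on bright genes. They did not pass on the signals as deposited.

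Ndufs8, another iron-sulphur subunit, had the lowest mean of complex I, at -0.37 ± 0.094 (adjusted p = 0.0371). Its signal was 6681 on the TAC 1 day array against 8372 on its sham, 4927 against 7586 at 1 week of TAC, 6064 against 8072 at 1 month of TAC, 4915 against 5982 at 1 week of MI, 5121 against 8263 at 1 month of MI and 8555 against 7983 with Ang II. The arrays overlapped, since the MI 1 week sham was lower than the TAC 1 day and TAC 1 month arrays and the Ang II array was above its control. Ndufs8 has 6 probe sets past the filter, and their means ran from -0.70 to -0.21. At 1 month of MI the brightest was at -0.69 and the next 2 at -0.30 and -0.28, and at 1 week of MI it was at -0.28 and those at -0.50 and -0.50. Ndufb10, an accessory subunit of the membrane arm, was at -0.35 ± 0.071 (adjusted p = 0.0194), with its lowest value, -0.61, at 1 week of MI. Ndufs4, an accessory subunit that stabilises the electron-input arm, was at -0.33 ± 0.073 (adjusted p = 0.0246). Ndufa12, also accessory, was at -0.32 ± 0.070 (adjusted p = 0.0237), with 3 probe sets between -0.33 and -0.27 and a dim one at 0.49. Around the limit of 5000, Ndufa9 (mean signal 4892) and Ndufs5 (4977) stood just below it with means of -0.22 and -0.26, and Ndufa8 (5159) and Uqcrq (5118) just above it with -0.33 and -0.23.

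Ndufb6, accessory, was at -0.51 at 1 day of TAC, one of the 3 lowest subunits of that pair, and at -0.27 ± 0.068 (adjusted p = 0.0373) over the 6. Its other probe set, with a mean signal of 3235 beside 3260, was at -0.25 at 1 day of TAC. Ndufb3, also accessory, was at -0.58 at 1 week of MI and at -0.22 ± 0.080 (adjusted p = 0.109) over the 6, which did not pass. Ndufb1 had a mean signal of 105 and was at -0.28, -0.33 and -0.41 at 1 day, 1 week and 1 month of TAC, 0.11 and 0.41 at 1 week and 1 month of MI, and 0.64 with Ang II. Its TAC ratios were below 0 and its MI and Ang II ratios above 0, with a mean of 0.023 ± 0.16 (adjusted p = 0.94). Ndufa4l2, a paralog of Ndufa4 that is induced in low oxygen, was also dim, with a signal of 92.0 on the TAC 1 day array against 128 on its sham, 235 against 243 at 1 week of TAC, 255 against 207 at 1 month of TAC, 114 against 306 at 1 week of MI, 229 against 122 at 1 month of MI and 169.5 against 164 with Ang II. Its ratios ran from -1.42 at 1 week of MI to 0.91 at 1 month of MI, and controls differed by up to 0.90 among themselves, so no direction was resolved (-0.11 ± 0.24, adjusted p = 0.79).

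Complex II, succinate dehydrogenase, is made of 4 nuclear-encoded subunits and 3 fell. Sdha, the flavoprotein that oxidises succinate, was at -0.26 ± 0.061 (adjusted p = 0.0305), Sdhc, a membrane anchor, at -0.26 ± 0.067 (adjusted p = 0.0405), and Sdhd, the other anchor, at -0.26 ± 0.069 (adjusted p = 0.0419). Sdhb, which carries the iron-sulphur clusters, was at -0.20 ± 0.060 (adjusted p = 0.0597) and did not pass. Under the common trimmed mean the 4 genes were lower than their controls in all 5 TAC and MI pairs. This held for 15.9% of all tested genes and for 55.9% of the 102 other genes above 5000. The median of the 4 subunits at 1 month of TAC, -0.32, turned to 0.00039 on the signals as deposited. Sdhb had a signal of 8912 on the TAC 1 day array against 9091 on its sham, 7412 against 9549 at 1 week of TAC, 7794 against 9475 at 1 month of TAC, 7795 against 9335 at 1 week of MI, 8264 against 9442 at 1 month of MI and 9246 against 9716 with Ang II. At 1 day of TAC it was near its sham (-0.029), where Sdhd was at -0.39, and at 1 week of TAC it was the lowest of its 12 arrays. Sdha has a second probe set, with a mean signal of 3941, which was at -0.38 over the 6 pairs, and a dim one at 0.076.

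In complex III, which passes electrons from ubiquinol to cytochrome c, 5 of 8 genes fell. Its medians were -0.20, -0.34 and -0.29 in the TAC pairs, -0.35 and -0.15 in the MI pairs and -0.032 with Ang II, and the sign turned at 1 month of TAC on the signals as deposited (0.027) and at 1 month of MI with the arrays centred on bright genes (0.034). Uqcrc1, the large core protein, had a signal of 5495 on the TAC 1 day array against 6646 on its sham, 4995 against 6644 at 1 week of TAC, 5133 against 6683 at 1 month of TAC, 4898 against 6340 at 1 week of MI, 5149 against 6613 at 1 month of MI and 6645 against 6768 with Ang II. The 5 TAC and MI arrays were below the 6 controls, and the Ang II array was among them. Its mean was -0.30 ± 0.064 (adjusted p = 0.0209). Uqcrfs1, the Rieske iron-sulphur protein, was at -0.26 ± 0.062 (adjusted p = 0.0294), Uqcr11 at -0.25 ± 0.060 (adjusted p = 0.0305), Uqcrc2, the second core protein, at -0.24 ± 0.055 (adjusted p = 0.0257) and Uqcrh, the hinge protein that binds cytochrome c1, at -0.21 ± 0.054 (adjusted p = 0.038). Uqcrc2 was at -0.20 with Ang II, one of the 3 lowest subunits of that pair, where its other probe set, with a mean signal of 6328, was at -0.0085.

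Uqcrb, which helps bind ubiquinone, did not pass (-0.14 ± 0.060, adjusted p = 0.142). Its probe set had a mean signal of 14062 after scaling. The highest deposited signal on any array, 14795, was that of this same probe set on the TAC 1 day sham. Whether the probe set was near an upper limit of the signal was not tested. A second Uqcrb probe set with a mean signal of 5162 was at -0.27 over the 6 pairs and at -0.35 at 1 day of TAC, where the brighter one was at 0.016. Among 14 subunit genes whose brightest probe set was above 5000 and whose next one was at or under 5000, 11 had the larger fall in the dimmer one. The medians of these 14 were -0.24 for the brightest and -0.32 for the dimmer probe sets. The dimmer ones had mean signals from 21.7 (Uqcrq) to 4709 (Ndufs7). Those of Ndufb8 (28.5) and Atp5c1 (46.1) were also close to the filter, where ratios vary widely. Why the falls differed was not tested. Of 154 subunit probe sets past the filter, 146 had a mean below 0 under the common trimmed mean. Many belong to the same gene, and no share over all probe sets is given here. Other genes above 5000 had a median of -0.14 under that scaling. Among the 45 subunit genes with several probe sets, 4 had means of opposite sign, Ndufa12, Sdha, Atp5c1 and Cox5b, each through a probe set with a signal under 100.

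Complex IV, cytochrome c oxidase, had 2 genes that fell of 16 tested, Cox7a1 and Cox4i1. Its medians were -0.052, -0.25 and -0.30 in the TAC pairs, -0.23 and -0.19 in the MI pairs and -0.0045 with Ang II. On the signals as deposited the TAC 1 month median turned to 0.018, and centred on bright genes the MI 1 week median turned to 0.010 and the Ang II median to 0.025. Among genes above 5000, whose difference does not depend on a constant scaling factor of an array, complex I minus complex IV was -0.17, -0.026 and -0.025 in TAC, -0.098 and -0.054 in MI and -0.054 with Ang II. It was below 0 in 6 of 6 pairs, and between control arrays it reached 0.055 in size, so the TAC 1 day and MI 1 week values lay outside the control differences. After quantile normalization, which is no constant factor, it was -0.11, -0.045 and -0.055 in TAC, -0.16 and -0.065 in MI and -0.064 with Ang II, all outside control differences of up to 0.021. These 9 genes of complex IV were called lower by limma in 2 cases and the 18 of complex I in 14. Ndufa4, with a mean signal of 6401, was counted among the 18 by its name. Whether the complexes differ was not tested, since the genes are not replicates.

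Cox7a1, the form of subunit 7a that predominates in heart and skeletal muscle, had the lowest adjusted p of the subunits. Its signal was 6091 on the TAC 1 day array against 8164 on its sham, 5064 against 7344 at 1 week of TAC, 5924 against 7907 at 1 month of TAC, 5136 against 7433 at 1 week of MI, 6384 against 8381 at 1 month of MI and 8039 against 8586 with Ang II. The TAC and MI arrays were all below the 6 controls, and the Ang II array lay among them. The mean was -0.40 ± 0.067 (adjusted p = 0.0106), lower in 6 of 6 pairs, and the gene also passed in the TAC effect of the fit by model, at -0.46 (adjusted p = 0.0308). It passed on the signals as deposited, after quantile normalization, centred on bright genes, without the pair as a block and without any single pair, and it did not pass without the filter, the intensity trend or the moderation. Cox4i1, the common form of the regulatory subunit 4, was at -0.22 ± 0.061 (adjusted p = 0.0494). Cox7a2, the form of subunit 7a found in most tissues, had 10091 on the TAC 1 day array against 9949 on its sham, 8036 against 9960 at 1 week of TAC, 8433 against 10242 at 1 month of TAC, 8534 against 10540 at 1 week of MI, 9554 against 10846 at 1 month of MI and 11204 against 10793 with Ang II. It did not pass (-0.17 ± 0.067, adjusted p = 0.13).

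Subunits 6a and 8 also have a muscle form and a more widespread form. Cox6a2, the muscle form of 6a, had 9843 on the TAC 1 day array against 10348 on its sham, 7971 against 10122 at 1 week of TAC, 8213 against 9867 at 1 month of TAC, 8041 against 10725 at 1 week of MI, 9152 against 11330 at 1 month of MI and 11877 against 11205 with Ang II. Its TAC and MI ratios were below 0 and the Ang II ratio was 0.084, with a mean of -0.22 ± 0.072 (adjusted p = 0.0756), which did not pass. Cox6a1, the widespread form, was at 2590 on the TAC 1 day array against 2661 on its sham, 2664 against 2862 at 1 week of TAC, 2863 against 2571 at 1 month of TAC, 2666 against 2532 at 1 week of MI, 2882 against 2734 at 1 month of MI and 2470 against 2490 with Ang II, with its groups overlapping. Its mean was 0.025 ± 0.058 (adjusted p = 0.814). Cox8b, the muscle form of subunit 8, was at -0.057, -0.56 and -0.30 at 1 day, 1 week and 1 month of TAC, -0.32 and -0.27 at 1 week and 1 month of MI, and 0.010 with Ang II, with a mean of -0.25 ± 0.076 (adjusted p = 0.0603), which did not pass. Cox8a, the widespread form, was at -0.11, -0.11 and -0.011 at 1 day, 1 week and 1 month of TAC, -0.085 and 0.0038 at 1 week and 1 month of MI, and -0.052 with Ang II, with a mean of -0.060 ± 0.058 (adjusted p = 0.537).

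A difference between forms on the same array does not depend on a constant scaling factor, and it rests here on the brightest probe set of each form. Cox7a1 minus Cox7a2 was -0.44, -0.23 and -0.14 in the TAC pairs, -0.23 and -0.21 in the MI pairs and -0.15 with Ang II. The mean was -0.23 ± 0.11 (SD, n = 6 pairs), below 0 in 6 of 6 pairs, while control arrays of the same time differed by up to 0.17. An exact two-sided sign-flip permutation test, added after the values were seen, gave p = 0.031, the smallest that 64 sign patterns allow, and 0.19 after Benjamini-Hochberg adjustment over 6 form pairs, so the correction was not passed. Cox6a2 minus Cox6a1 was -0.25 ± 0.23 (SD, n = 6 pairs, below 0 in 5 of 6, exact p = 0.094, adjusted 0.25). Cox8b minus Cox8a was -0.19 ± 0.20 (SD, n = 6 pairs, below 0 in 4 of 6, exact p = 0.12, adjusted 0.25). At 1 day of TAC the probe sets of a form disagreed. A second Cox7a2 probe set, with a mean signal of 6872, was at -0.20 where the brightest was at 0.020, and a second one of Cox6a2, with a mean signal of 3983, was at -0.44 where the brightest was at -0.072. The pairs Cox4i2 and Cox4i1 (0.27 ± 0.68, adjusted exact p = 0.56), Ndufa4l2 and Ndufa4 (0.11 ± 0.79, adjusted exact p = 0.81) and Cox7a2l and Cox7a2 (-0.093 ± 0.32, adjusted exact p = 0.81) had SDs larger than their means. After quantile normalization Cox7a1 minus Cox7a2 was -0.24 ± 0.12, Cox6a2 minus Cox6a1 -0.16 ± 0.17 and Cox8b minus Cox8a -0.11 ± 0.11 (SD, n = 6 pairs). Cox4i2 minus Cox4i1 was then 0.059, Ndufa4l2 minus Ndufa4 turned to -0.055, and Cox7a2l minus Cox7a2 was -0.19, below 0 in 6 of 6 pairs.

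**Figure D4:**
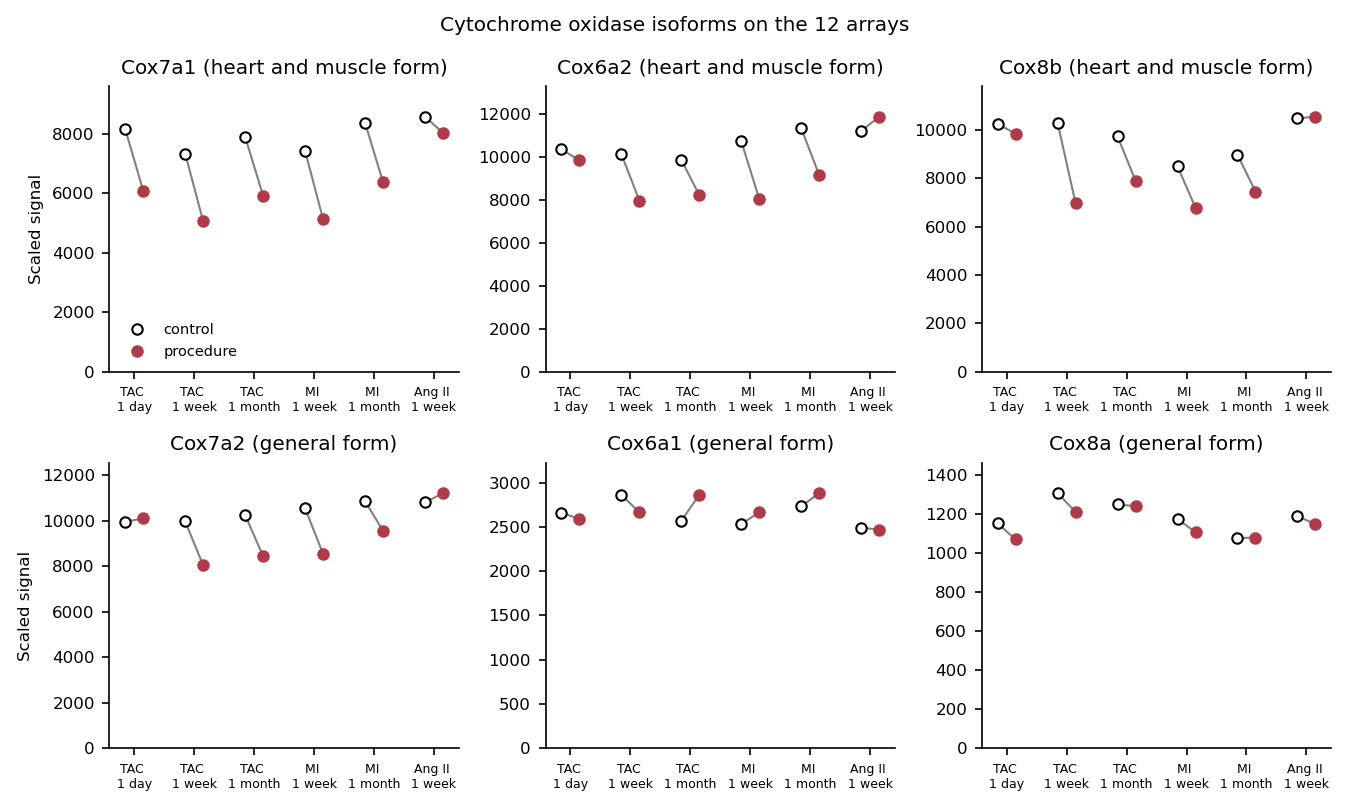
Probe-set signal (vertical axis, linear, from 0) of muscle and widespread forms of complex IV subunits on each of the 12 arrays, with each procedure array joined to its own control. For Cox7a1 the 5 TAC and MI arrays lie between 5064 and 6384 and the 6 controls between 7344 and 8586, and for Cox6a1 the 12 arrays lie between 2470 and 2882.

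The sequences just upstream of 4 of these genes are shown, for some of the forms compared above and for Ndufa8. Ndufa8 was called lower together with Cox7a1 in the TAC effect of the fit by model. Each is the 250 bases before a start site of the gene in RefSeq's GRCm38.p6 annotation, 5' to 3' on the gene's strand. Capitals mark exact matches on either strand to GCATGCG (NRF1), CCGGAAG (GABPA), AAGGTCA (ERR), ATGGCGG (YY1) or GGGCGG (SP1). NRF1 and GABPA, ERR and YY1 are known regulators of nuclear genes for mitochondrial proteins and SP1 is a general promoter factor.
Cox7a1 (chr7:30183921-30184170, plus strand): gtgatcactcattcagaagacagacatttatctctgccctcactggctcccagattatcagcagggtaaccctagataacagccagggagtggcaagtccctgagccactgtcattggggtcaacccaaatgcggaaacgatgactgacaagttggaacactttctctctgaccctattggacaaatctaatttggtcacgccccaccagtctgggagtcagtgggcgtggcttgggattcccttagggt
Cox7a2 (chr9:79759854-79760103, minus strand): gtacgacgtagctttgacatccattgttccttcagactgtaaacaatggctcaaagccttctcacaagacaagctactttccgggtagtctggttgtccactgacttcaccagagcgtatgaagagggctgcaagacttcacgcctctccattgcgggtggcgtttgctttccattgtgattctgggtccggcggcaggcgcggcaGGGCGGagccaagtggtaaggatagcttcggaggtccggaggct
Cox6a1 (chr5:115348959-115349208, minus strand): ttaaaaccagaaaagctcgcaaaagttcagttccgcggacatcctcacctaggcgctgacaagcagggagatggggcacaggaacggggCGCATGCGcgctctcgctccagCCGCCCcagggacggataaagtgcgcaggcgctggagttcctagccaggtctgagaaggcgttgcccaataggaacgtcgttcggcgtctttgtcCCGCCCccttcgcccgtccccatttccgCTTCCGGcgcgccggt
Ndufa8 (chr2:36049339-36049588, minus strand): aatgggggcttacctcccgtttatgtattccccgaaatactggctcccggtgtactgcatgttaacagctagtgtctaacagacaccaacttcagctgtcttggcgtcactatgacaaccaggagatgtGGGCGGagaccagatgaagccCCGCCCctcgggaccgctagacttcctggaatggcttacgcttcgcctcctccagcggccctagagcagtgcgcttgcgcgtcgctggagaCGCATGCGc

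The Cox7a1 window held none of these letters and the Cox7a2 window held 1 SP1 match. The windows of Cox8b, a muscle form, and of Cox8a, its widespread form, are not shown and held none either. The Cox6a1 window held an NRF1 match that reads on both strands, a GABPA match on the minus strand and 2 SP1 matches, and the Ndufa8 window an NRF1 match on both strands just before the start and 2 SP1 matches. RefSeq's table held 72 windows for 67 of the 82 genes. Of these, 11.1% held the NRF1 letters against 3.02% of all 32851 windows, 16.7% against 6.91% held GABPA, 6.94% against 4.08% ERR, 6.94% against 2.21% YY1 and 36.1% against 32.7% SP1. Among the 42 windows of genes that fell, the shares were 9.52%, 19.0%, 7.14%, 4.76% and 33.3%. The median GC content was 57% in the windows of the subunits and 52.4% over all windows. A match is a run of letters and not a measured binding site.

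Several other genes of complex IV were dim or variable on the probe set used. Cox4i2, a lung and low-oxygen form of subunit 4, had a mean signal of 41.6 and was at 1.16 at 1 day and -1.21 at 1 month of TAC, and at 0.52 with Ang II. Cox6b2, a testis form, with a mean signal of 43.0, was at -0.95, 0.27 and -1.43 at 1 day, 1 week and 1 month of TAC, -0.065 and -0.92 at 1 week and 1 month of MI, and -0.42 with Ang II. It was the lowest subunit in 4 of the 6 pairs and did not pass (-0.58 ± 0.24, adjusted p = 0.134). Cox8c (96.6) and the brightest Cox7c probe set with a single symbol (36.6) were at -0.13 ± 0.11 (adjusted p = 0.498) and -0.039 ± 0.19 (adjusted p = 0.914). Probe sets that join several symbols were left out, so a dim probe set here does not show weak expression of the gene. Cox7a2l, which joins complexes III and IV in supercomplexes, was at -0.71, -0.24 and -0.28 at 1 day, 1 week and 1 month of TAC, -0.20 and -0.093 at 1 week and 1 month of MI, and -0.040 with Ang II. Its TAC 1 day signal, 1331 against 2172 on the sham, was the lowest of its 12 arrays. The mean did not pass (-0.26 ± 0.087, adjusted p = 0.0808).

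ATP synthase had 10 of 17 genes that fell, with means between -0.29 and -0.14 over all 17. Its medians were -0.15, -0.34 and -0.33 in the TAC pairs, -0.29 and -0.20 in the MI pairs and -0.017 with Ang II, which turned to 0.012 with the arrays centred on bright genes. Atp5e, the epsilon subunit of the central stalk, had a signal of 4377 on the TAC 1 day array against 5363 on its sham, 3760 against 5107 at 1 week of TAC, 3780 against 4886 at 1 month of TAC, 3524 against 4662 at 1 week of MI, 4100 against 4771 at 1 month of MI and 5237 against 5273 with Ang II. Its TAC and MI arrays lay below the 6 controls, and it was at -0.29 ± 0.067 (adjusted p = 0.028). Atp5d, the delta subunit of that stalk, was at -0.25 ± 0.067 (adjusted p = 0.0443), Atp5j2, of the membrane part, at -0.25 ± 0.068 (adjusted p = 0.0445), and Atp5a1, the alpha subunit of the catalytic head, at -0.24 ± 0.062 (adjusted p = 0.0391).

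Atp5b, the catalytic beta subunit, had 8660 on the TAC 1 day array against 8667 on its sham, 7245 against 8373 at 1 week of TAC, 7341 against 9401 at 1 month of TAC, 8236 against 9196 at 1 week of MI, 8523 against 9514 at 1 month of MI and 8798 against 9501 with Ang II. It was level with its sham at 1 day of TAC and below it at 1 week and 1 month, and it did not pass (-0.17 ± 0.058, adjusted p = 0.093). The 3 genes for the c-ring, which turns with proton flow, encode the same mature protein. Atp5g1 was at -0.22 ± 0.060 (adjusted p = 0.0438) and fell, Atp5g2 at -0.23 ± 0.065 (adjusted p = 0.0501) did not pass, and Atp5g3 at -0.14 ± 0.064 (adjusted p = 0.178) had the highest mean of complex V. Atp5g3 was at 0.015, -0.25 and -0.36 at 1 day, 1 week and 1 month of TAC, -0.15 and -0.14 at 1 week and 1 month of MI, and 0.038 with Ang II. Atp5c1, the gamma subunit, was at -0.22 ± 0.061 (adjusted p = 0.0462), with a dim probe set at 0.20, and Cox5b of complex IV at -0.15 ± 0.063 (adjusted p = 0.149), with a dim one at 0.14.

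TAC and MI were compared directly in a fit with a separate effect for each model. The difference passed for 0 of 80 subunits, with 0% of all tested genes in either direction. The unadjusted p was under 0.05 for 1 subunit, Ndufb1, at -0.60 ± 0.24 (adjusted p = 0.983), against 2.99% of all tested genes lower and 1.55% higher. In the TAC effect of this fit 2 subunits fell, Ndufa8 (adjusted p = 0.0452) and Cox7a1, and 0 rose, against 1.26% and 1.08% of all tested genes, and 64 had an unadjusted p under 0.05. In its MI effect 0 fell and 0 rose, against 0.155% and 0.826%, and 57 had an unadjusted p under 0.05. No share of all tested genes under that unadjusted p was computed for either effect, so the counts of 64 and 57 have no background to be read against. The fit has 3 residual degrees of freedom, and a difference that misses the threshold does not show that the models act alike. Without the TAC 1 day pair, 46 subunits fell in TAC and 52 in MI, where 336 and 700 of all tested genes did. With all pairs, 147 and 18 of all tested genes fell in TAC and MI. Without any other pair 0 to 2 subunits fell in TAC, where 2 to 142 of all tested genes did. Without any other TAC pair or the Ang II pair 0 subunits fell in MI, where 7 to 19 of all tested genes did. The Ang II effect rests on 1 pair and has no replicate.

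Other genes of the pathway were read beside the subunits, with limma's calls again against 5.7% of all tested genes lower and 5.16% higher. Of 16 tested genes for the electron carriers coenzyme Q and cytochrome c and for enzymes that make or feed them, 12 fell and 0 rose, with the lowest means in Coq8a (-0.55, adjusted p = 0.0288), a kinase-like protein of coenzyme Q synthesis, and Pdss2 (-0.51, adjusted p = 0.0284), which builds its side chain. Of 50 tested assembly factors 12 fell and 1 rose. Tmem70, which helps assemble ATP synthase, was at -0.48 (adjusted p = 0.0156) and Sdhaf4, an assembly factor of complex II, at -0.48 (adjusted p = 0.0346), while Cox19, a copper-handling factor of complex IV, was at 0.38 (adjusted p = 0.0432). Of 16 TCA cycle genes 15 fell, Suclg2 of succinyl-CoA synthetase at -0.47 (adjusted p = 0.00647) and the isocitrate dehydrogenase Idh2 at -0.42 (adjusted p = 0.0252).

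Of 46 genes of the large mitochondrial ribosome subunit 14 fell and 0 rose, with Mrpl39 at -0.55 (adjusted p = 0.0094). Of 23 genes of mitochondrial protein import 6 fell and 0 rose, with the chaperonin Hspd1 at -0.33 (adjusted p = 0.0264). Of 8 genes for nucleotide and phosphate transport 4 fell and 0 rose, with the channel Vdac3 at -0.30 (adjusted p = 0.0305) and the nucleotide carrier Slc25a5 at -0.014 (adjusted p = 0.902). Of 18 regulators of mitochondrial genes 4 fell and 0 rose, with Ppara, a receptor for fatty acids, at -0.72 (adjusted p = 0.0161), and Pprc1, a coactivator, at 0.34, which did not pass. At 1 day of TAC the medians were -0.52 for assembly factors, -0.40 for the mitochondrial ribosome and -0.82 for the regulators, beside -0.19 for the subunits. With Ang II the medians of these 7 lists lay between -0.12 and 0.0012. The counts rested on the scaling too. On the signals as deposited 2 of the 16 electron carrier genes, 3 of the 16 TCA cycle genes, 1 of the mitochondrial ribosome, 1 regulator and 0 of the other 3 lists fell, against 0.929% of all tested genes. Centred on bright genes 3 electron carrier genes, 5 TCA cycle genes, 1 of the mitochondrial ribosome, 1 regulator and 0 of the other 3 lists fell, against 1.3%, and 2 regulators rose. After quantile normalization 10 electron carrier genes, 12 assembly factors, 9 TCA cycle genes, 11 of the mitochondrial ribosome, 5 of import, 1 of transport and 4 regulators fell, against 5.2%.

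The cardiomyocyte markers, measured in the same ventricles, had 3 of 18 that fell and 0 that rose, with 0 that fell on the signals as deposited, 1 after quantile normalization and 0 centred on bright genes. Their medians were -0.038, -0.26 and -0.26 in the TAC pairs, -0.21 and -0.097 in the MI pairs and -0.019 with Ang II, beside -0.19, -0.33, -0.32, -0.34, -0.22 and -0.023 for the subunits. Ryr2, the calcium release channel, was at -0.31 (adjusted p = 0.0143) and Nkx2-5, a cardiac transcription factor, at 0.014. The fibroblast medians were 0.26, 0.88 and 0.60 in TAC, 0.96 and 0.65 in MI and 0.29 with Ang II, with Postn at 2.27 (adjusted p = 0.00239). The macrophage and monocyte medians were 1.54, 0.28 and 0.42 in TAC, 1.86 and 1.03 in MI and 0.24 with Ang II, with Ccr2 at 1.96 (adjusted p = 0.00995). Of 12 endothelial markers 1 fell and 0 rose. Most markers of tissues next to the heart did not pass the filter, 5 of 7 for brown fat, Ucp1 among them, and 10 of 13 for skeletal muscle, Myh1, Myh2 and Myh4 among them, although Myl1, of the latter list, rose by 0.42 (adjusted p = 0.0162). Of 3 tested adipocyte markers 1 fell and 0 rose, and the 2 tested red blood cell markers, Slc4a1 at -0.34 and Alas2 at -0.15, and the 2 of brown fat, Ppargc1a at -0.47 and Cidea at -0.013, did not pass.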

How the data were processed

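Left ventricular RNA of 12 groups was measured on 1 Affymetrix array each, with 5 µg of RNA per the labels' protocols. The deposited values are intensity, a linear signal per probe set, and GCOS is named with no version per the submitters' processing notes. Neither the signal algorithm nor any scaling is given in the sources used here. The labels give the 1 day harvest to TAC and the series text gives it to MI, and the labels were used. Pairs come from the sample titles.

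Signals were scaled to a common 2% trimmed mean (factors 0.872 to 1.09), raised to at least the 20th percentile (4.54) and put on a log2 scale. Each gene took its brightest probe set with a single symbol, and 10 probe sets that join a matching symbol with others were left out. The filter kept 11624 genes whose mean log2 exceeded the 40th percentile (a signal of 18.1). At most 0.831% of probe sets had identical values on any pair of arrays.

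Limma 3.58.1 in R 4.3.3 fitted the mean of the 6 pairs, with a block for the pair, a prior variance that follows intensity and 5 residual degrees of freedom, and a model with separate TAC, MI and Ang II effects, with 3. P-values were adjusted by Benjamini-Hochberg over all tested genes at 0.05, and the fit was tested on simulated data. P-values reflect the spread among these arrays alone, which may in part be technical, and the residual also holds real differences between models and times. Their number limits the precision.

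Alternatives were other scalings, floors, probe sets, no filter, no block, no trend, no moderation and each pair left out. Named genes are the 3 lowest and the highest of each complex, complex II, the forms compared, the 3 lowest and 2 highest of each pair, genes whose probe sets disagree, those next to 5000 and the 2 lowest and the highest of each other list. Genes outside that rule (Ndufs4, Ndufa5, Ndufab1, Uqcrh, Atp5a1, Atp5b, Atp5g1, Atp5g2 and the markers not past the filter) were chosen after their values were seen. The members and lists were chosen with earlier results of these data known.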

Additional observations from a re-analysis of the deposited data

Results flagged for a closer look

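Ndufb1, an accessory subunit of complex I, went opposite ways in the models. It was lower than its sham in 3 of 3 TAC pairs and higher in 2 of 2 MI pairs, and the TAC minus MI difference was -0.60 (limma, adjusted p = 0.983), which did not pass. Its mean signal was 105, and the control arrays alone ran from 65.4 to 139.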

How the results depend on the processing

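Under every alternative run, 0 subunits were called higher over the 6 pairs and 0 different between TAC and MI by limma (unadjusted p under 0.05 for at most 1 higher over the 6 pairs). The number called lower was 44 as reported. It was 1 on the signals as deposited (Cox7a1), 10 after quantile normalization, 6 centred on bright genes, 29 with the mean of all probe sets and 21 of 51 with the brightest probe set at or under 5000. It was 0 with no filter on dim genes, 0 with no intensity trend and 0 with no moderation, where limma's unadjusted p was under 0.05 for 66, 60 and 67 subunits lower. Over all tested genes 0, 68 and 0 were then called lower. With no replicate block, so without the pairing, 9 subunits and 227 of all tested genes were called lower. Leaving out each pair in turn gave 2 to 62 subunits, and 87 to 806 of all tested genes. The cause was not tested. Floors at the 10th and 40th percentile gave 44 and 42. On the signals as deposited, medians were of complex I -0.42 at TAC 1 day, -0.12 at TAC 1 week, -0.0082 at TAC 1 month and -0.24 at MI 1 week, of complex II -0.42 at TAC 1 day, -0.13 at TAC 1 week, 0.00039 at TAC 1 month and -0.23 at MI 1 week, of complex III -0.13 at TAC 1 week and 0.027 at TAC 1 month, of complex IV -0.21 at TAC 1 day, -0.037 at TAC 1 week, 0.018 at TAC 1 month and -0.075 at MI 1 week, of complex V -0.31 at TAC 1 day, -0.13 at TAC 1 week, -0.012 at TAC 1 month and -0.14 at MI 1 week. The counts of lower subunits per pair were 48 for TAC 1 day, 6 for TAC 1 week, 2 for TAC 1 month, 16 for MI 1 week and 11 for MI 1 month. After quantile normalization, medians were of complex I -0.14 at TAC 1 week and -0.095 at TAC 1 month, of complex II -0.12 at TAC 1 week, -0.15 at TAC 1 month, -0.27 at MI 1 week and -0.078 at MI 1 month, of complex III -0.13 at TAC 1 week and -0.077 at TAC 1 month, of complex IV -0.064 at TAC 1 week, -0.065 at TAC 1 month, -0.10 at MI 1 week and -0.062 at MI 1 month, of complex V -0.097 at TAC 1 week, -0.084 at TAC 1 month, -0.14 at MI 1 week and -0.060 at MI 1 month. The counts of lower subunits per pair were 8 for TAC 1 week, 5 for TAC 1 month, 33 for MI 1 week and 4 for MI 1 month. With the arrays centred on bright genes, a setting chosen after seeing the data, medians were of complex I -0.13 at TAC 1 week, -0.095 at TAC 1 month, -0.15 at MI 1 week and -0.069 at MI 1 month, of complex II -0.13 at TAC 1 week, -0.086 at TAC 1 month, -0.14 at MI 1 week and -0.00022 at MI 1 month, of complex III -0.13 at TAC 1 week, -0.059 at TAC 1 month, -0.11 at MI 1 week and 0.034 at MI 1 month, of complex IV -0.038 at TAC 1 week, -0.068 at TAC 1 month, 0.010 at MI 1 week and -0.0019 at MI 1 month, of complex V -0.13 at TAC 1 week, -0.099 at TAC 1 month, -0.052 at MI 1 week and -0.0079 at MI 1 month. The counts of lower subunits per pair were 14 for TAC 1 day, 4 for TAC 1 week, 2 for TAC 1 month, 8 for MI 1 week and 2 for MI 1 month. With the brightest probe set at or under 5000, medians were of complex II -0.31 at MI 1 month, of complex III -0.11 at TAC 1 week, -0.87 at TAC 1 month, -0.77 at MI 1 month and -0.39 at Ang II 1 week, of complex IV -0.11 at TAC 1 week, -0.21 at TAC 1 month and -0.045 at MI 1 month, of complex V -0.18 at TAC 1 month. Complex III then held only 2 genes, Uqcr10 and Uqcrq, with control differences of up to 0.51. The Uqcrq probe set had a mean signal of 21.7, close to the filter. At TAC 1 month it was at -1.46 and Uqcr10 at -0.29. The counts of lower subunits per pair were 27 for TAC 1 week, 24 for TAC 1 month, 34 for MI 1 week, 14 for MI 1 month and 1 for Ang II 1 week. With the mean of all probe sets of a gene, medians were of complex II -0.14 at TAC 1 day, -0.22 at TAC 1 week and 0.044 at Ang II 1 week. The count of lower subunits was 2 for Ang II 1 week. With the brightest probe set at or under 5000, Atp5c1 was at 0.20 and Cox5b at 0.14. Centred on bright genes, Atp5g3 was at 0.017, Cox5b at 0.0079, Cox7c at 0.12, Cox8a at 0.097, Cox8c at 0.032, Ndufa4l2 at 0.043 and Uqcrb at 0.013. On the signals as deposited Cox7c was at 0.057 and Cox8a at 0.036, after quantile normalization Cox4i2 at -0.012 and Ndufb1 at -0.020, and with the mean of all probe sets Cox8c at 0.083 and Uqcrq at 0.20. Leaving out each pair in turn gave -0.16 to 0.31 for Cox4i2, -0.00081 to 0.051 for Cox6a1, -0.10 to 0.071 for Cox7c, -0.32 to 0.15 for Ndufa4l2 and -0.10 to 0.11 for Ndufb1. Of the other comparisons of named genes with an alternative, 409 kept direction and side of the threshold, 242 no longer passed and 9 newly passed. The number of arrays limits the precision, and no signal over background was given.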
